A study of Mus musculus with 2 samples.

Results

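The expression of 10 BCL2 family genes was followed through mouse bone marrow in droplet-based 3′ scRNA-seq. The members were taken by symbol, and all 10 were found among the 32285 genes listed in both libraries. They comprise 6 survival genes (*Bcl2*, *Bcl2l1*, *Mcl1*, *Bcl2a1a*, *Bcl2a1b* and *Bcl2a1d*), 2 pore-forming death genes (*Bax* and *Bak1*) and 2 BH3-only death genes (*Bcl2l11* and *Bid*).

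Proteins of this family control whether the outer membrane of mitochondria is opened, the step that commits a cell to intrinsic apoptosis. BAX and BAK form the pore, the survival proteins hold them and the BH3-only proteins in check, and BH3-only proteins such as BIM (encoded by *Bcl2l11*) and BID release or trigger the pore formers. Blood cells are known to lean on different survival proteins by lineage and stage. MCL1, a protein with a very short life, is needed by neutrophils, BCL-XL (encoded by *Bcl2l1*) by maturing red cells, and BCL2 by resting lymphocytes.

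The study compared 1 library from control (Ctrl) mice with 1 library from *Map4k4*-cKO (cKO) mice, aged 13 to 14 weeks on a C57BL/6 background, to follow neutrophil differentiation after loss of the kinase gene *Map4k4*. The cKO mice carried floxed *Map4k4* alleles and Mx1-Cre, an interferon-inducible recombinase that acts in many cells besides neutrophils, and their floxed alleles were deleted by poly I:C injection. The control littermates also carried Mx1-Cre and are written as *Map4k4*-/-, a notation in which the minus sign is the partner of the floxed allele. A poly I:C treatment is not stated for the controls, nor is the number of mice in each library. Each library mixed 2 parts of c-Kit-enriched progenitors with 3 parts of marrow depleted of red cells, so the numbers of cells per class do not give their shares in marrow.

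Since each genotype had 1 library, no difference between Ctrl and cKO could be set against replicates and no test was made. Molecules were counted by UMIs, barcodes added to each RNA before amplification. Levels are in CPM, the UMIs of a gene divided by all UMIs of the summed cells and scaled to 1000000. Intervals are exact 95% intervals that cover counting error only. After filters, 9965 Ctrl and 6718 cKO cells with 71282090 and 64241692 UMIs were kept. The median depth was 4111 UMIs per cell in Ctrl and 6243.5 in cKO. In the kept cells *Map4k4* was at 72.6 CPM in the library labelled Ctrl and 64.3 CPM in the library labelled cKO. By class it was level in HSC/MPP-like cells, at 119 and 120 CPM, and in monocyte-like cells, at 154 and 156 CPM. In ProNeu-like cells it was higher in cKO, at 11.7 and 18.7 CPM, which goes against the label. In mNeu-like cells it was lower in cKO, at 172 and 135 CPM, a log2 ratio of -0.35. That was 0.18 above the median log2 ratio of all genes there with at least 10 UMIs, -0.53. Relative to the median of its class it lay 0.13 below in PreNeu-like, 0.11 below in imNeu-like and 0.18 below in early erythroid-like cells. The values thus do not show a clear loss of *Map4k4* RNA in cKO. By RT-PCR, the paper reports that the transcript was lost in stem and progenitor cells after poly I:C. The 3′ counts do not show which exons were present, and Ctrl and cKO stand here for the libraries labelled so. Of the barcode names, 3010 occurred in both libraries. Among shared names with both cells in a class, 15.6% fell in the same class, where the class shares alone give 14.1%. Over the 2949 names shared by kept cells, Pearson's r of log10 UMIs was 0.21. Its cause was not tested.

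Cells were placed in classes by marker genes, with none of the members among the markers. A cell type gate needed at least 3 markers at 4 or more times their mean share, and neutrophil stages were split by primary granule, secondary granule, cell cycle and late markers into ProNeu-like, PreNeu-like, imNeu-like and mNeu-like cells, from progenitor to mature. These gates took 70.1% of Ctrl cells and 61.1% of cKO cells. The 4 further genes kept aside for each class were all higher inside it than in the other gates summed in both libraries, except for 1 of 4 in the 6 megakaryocyte-like cKO cells. PreNeu-like and imNeu-like cells share the same 4 genes and were not set against each other, so the split between them was not checked. Ungated cells took no part. Altogether 7 gates held at least 50 cells in both libraries and 8 more did so in Ctrl only. The mNeu-like gate was the largest, with 1842 Ctrl and 1532 cKO cells, at median depths of 2409 and 6485.5 UMIs per cell.

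The leading survival gene differed between gates. *Mcl1* led in every neutrophil gate, but also in monocyte-like (78.7% of survival gene UMIs in Ctrl and 85.0% in cKO) and early erythroid-like cells (84.5% and 91.0%). In Ctrl it led in macrophage-like, pDC-like, ProB-like, B-like and plasma cell-like cells as well. *Bcl2* led in T-like and HSC/MPP-like cells, and *Bcl2l1* in erythroblast-like cells. In HSC/MPP-like cells of cKO the intervals of *Bcl2* (43.9% to 54.1%) and *Mcl1* (41.0% to 51.2%) overlapped. The highest of the 7 gates was the same in both libraries for 7 of the 10 members. The exceptions were *Bax*, *Bcl2l11* and *Bcl2a1a*.

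**Figure D1:**
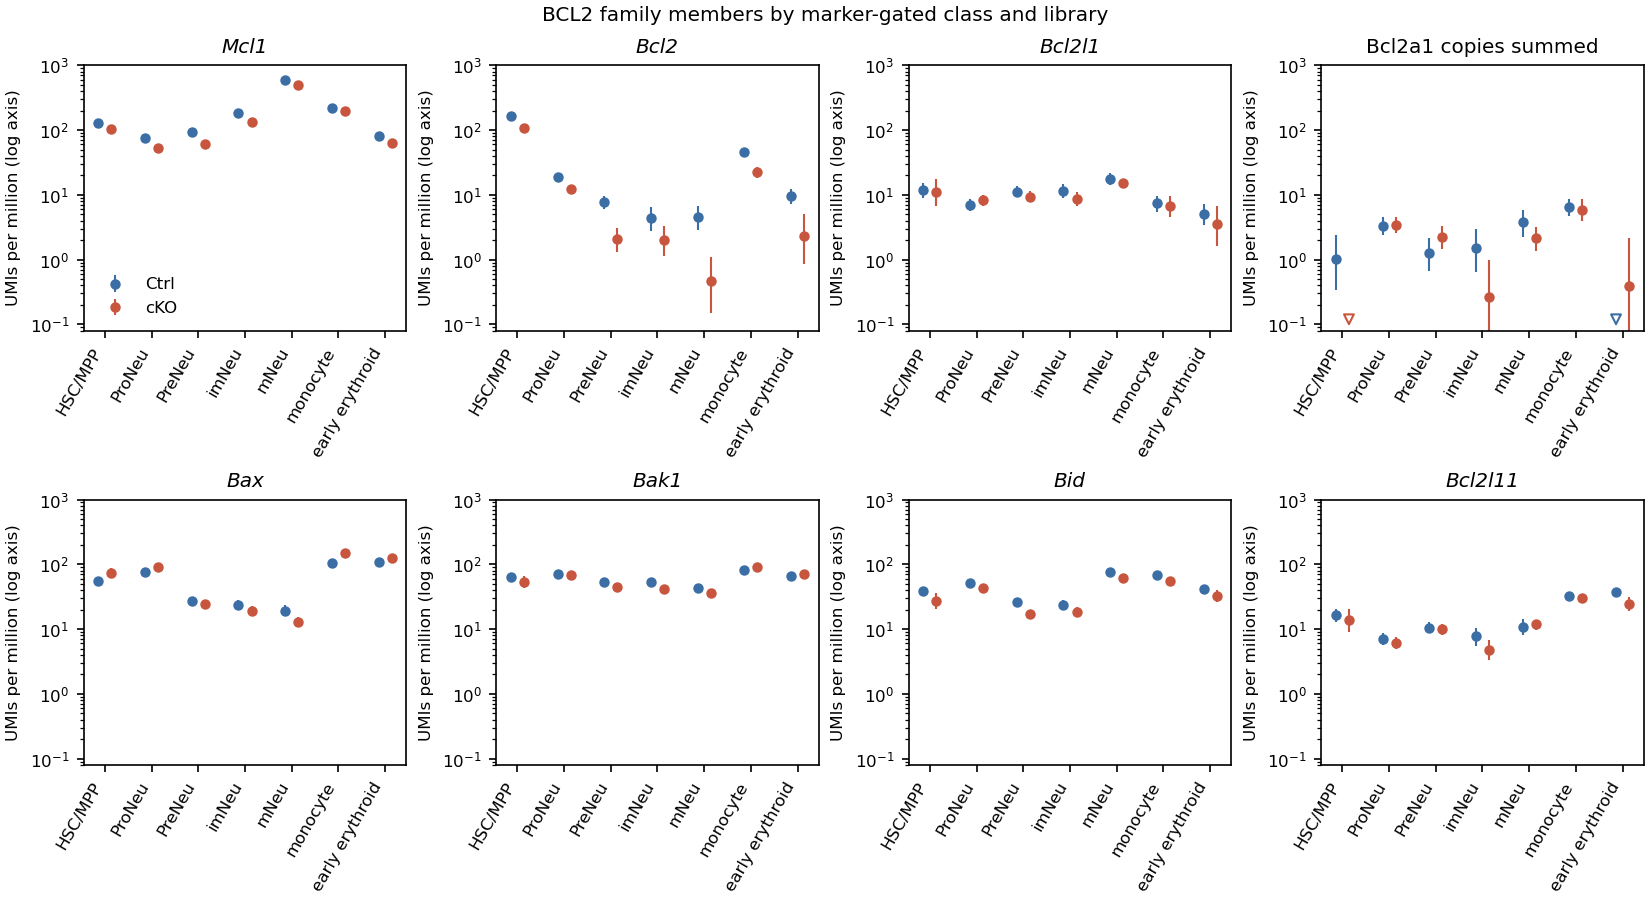
Level of the members, with the 3 *Bcl2a1* copies summed (vertical axis, CPM, log axis) in the 7 gates with at least 50 cells in both libraries. Points are Ctrl (blue) and cKO (red), bars are exact 95% counting intervals, and open triangles mark sums of 0. *Mcl1* peaks in the mNeu-like gate at 589 and 494 CPM, and *Bcl2* in the HSC/MPP-like gate at 166 and 109 CPM.

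*Mcl1* (chromosome 3 of GRCm38 from 95658788 to 95663176) was the most abundant member, and its CPM was higher at each later stage of the neutrophil path. In Ctrl it stood at 74.8, 93.3, 184 and 589 CPM in ProNeu-like, PreNeu-like, imNeu-like and mNeu-like cells. In cKO the same stages stood at 52.6, 60.3, 133 and 494 CPM. The order was identical in both libraries. Intervals of neighbouring stages were apart, except for ProNeu-like (48.8 to 56.6) and PreNeu-like cells (55.8 to 65.0) of cKO. In CPM the mNeu-like level was 7.87 times the ProNeu-like level in Ctrl and 9.39 times in cKO. These are shares of all UMIs, and median depth fell from 16853 to 2409 UMIs per cell in Ctrl and from 19258 to 6485.5 in cKO. From ProNeu-like to mNeu-like cells, *Mcl1* UMIs per cell were 1.27, 1.01, 1.03 and 1.62 in Ctrl. In cKO they were 1.06, 1.14, 1.59 and 3.44. In the 3 other gates with at least 50 cells in both libraries *Mcl1* lay between 63.0 and 221 CPM, with monocyte-like cells highest at 221 and 198 CPM. B-like cells of Ctrl, at 437 CPM (393 to 484), came nearest to mature neutrophils.

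Detection followed the order of CPM once depth was made equal, which restates the share of UMIs and is not separate evidence. With every cell thinned to 1000 UMIs, *Mcl1* was seen in 44.6% of Ctrl and 39.7% of cKO mNeu-like cells, and in 7.6% and 4.82% of ProNeu-like cells. Before thinning, the shares from ProNeu-like to mNeu-like cells were 65.2%, 57.3%, 56.0% and 72.8% in Ctrl, which is not the order of CPM. In cKO they were 52.3%, 59.7%, 72.6% and 89.6%. The unthinned mNeu-like shares were in the opposite order of the libraries, with the deeper library higher. UMIs per cell also stood the other way, at 1.62 in Ctrl and 3.44 in cKO mNeu-like cells, beside the depths given above.

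The CPM of *Mcl1* was also higher in later cells when neutrophils were ordered by their late marker share in place of gates. This ordering took cells with secondary granule or late markers and with primary granule markers under their mean, including some outside the gates. From the lowest to the highest of 8 bins it went from 104 to 550 CPM in Ctrl, with 605 CPM in the bin before the last, and from 66.1 to 562 CPM in cKO. In the bin with 2 to 4 times the mean late marker share (1 to 2 on the log2 axis) it stood at 523 CPM (490 to 558) in Ctrl and 287 CPM (269 to 306) in cKO. In the last bin the levels were 550 (509 to 593) and 562 CPM (537 to 589), with overlapping intervals.

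**Figure D2:**
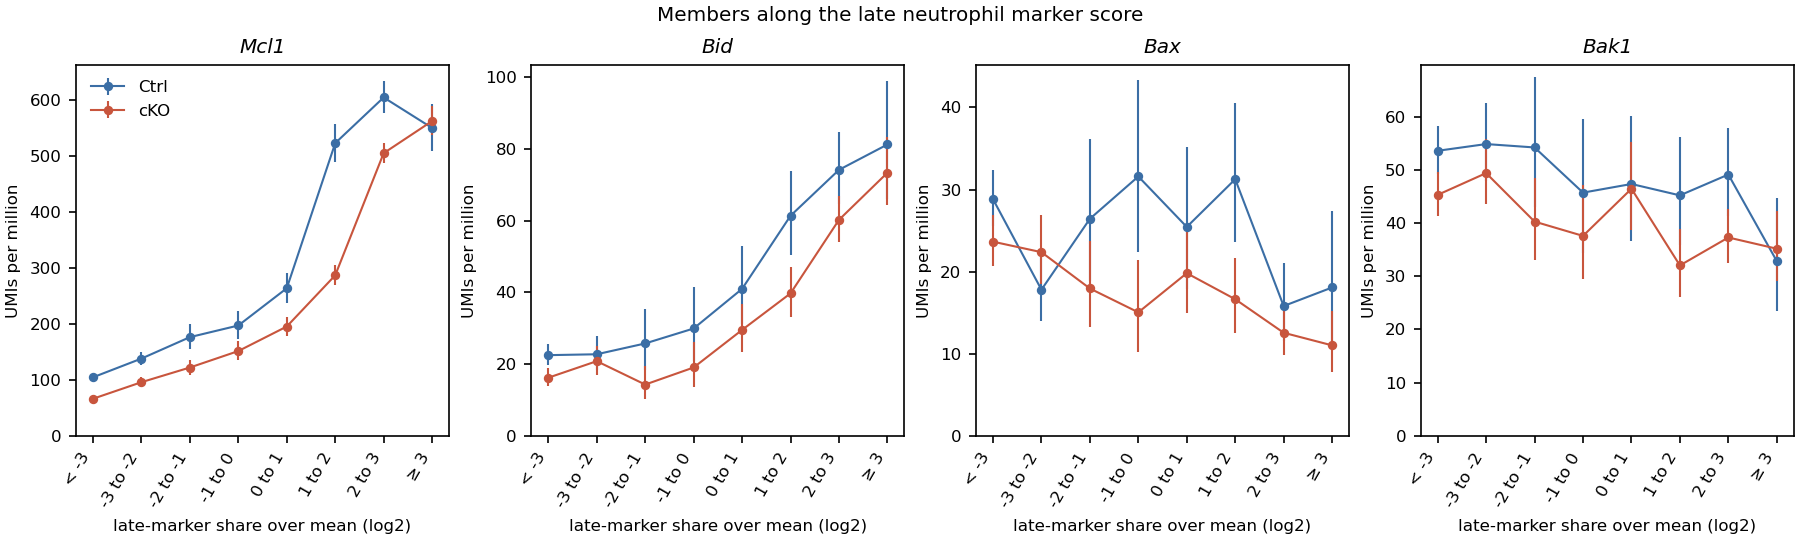
Levels of *Mcl1*, *Bid*, *Bax* and *Bak1* (vertical axis, CPM from 0) in neutrophil cells ordered by late marker share over its mean (horizontal axis, log2, 8 bins), for Ctrl (blue) and cKO (red) with exact 95% counting intervals. *Mcl1* and *Bid* are higher where late markers are, with 104 and 22.5 CPM in the first and 550 and 81.3 CPM in the last bin of Ctrl.

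*Bcl2* (chromosome 1, 106538178 to 106714274, minus strand), the founding survival gene, had the opposite course. HSC/MPP-like cells held 166 CPM (155 to 178) in Ctrl and 109 CPM (94.3 to 126) in cKO, and ProNeu-like cells 18.5 and 12.3 CPM. The progenitor level was 8.96 times the ProNeu-like level in Ctrl and 8.91 times in cKO. Among lymphoid cells, T-like cells reached 493 CPM (409 to 590) in 57 Ctrl cells and 735 CPM (520 to 1009) in 10 cKO cells, and NK-like cells 564 CPM in 15 Ctrl cells and 376 CPM in 6 cKO cells. B-like cells of Ctrl had 113 CPM, ProB-like cells 12.6 CPM and basophil/mast-like cells 108 CPM.

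In the later neutrophil gates *Bcl2* came near the level of RNA from other cells. The 3 gates of Ctrl, in the order PreNeu-like, imNeu-like, mNeu-like, held 7.73, 4.36 and 4.54 CPM. In the same gates *Cd79a*, a B cell receptor gene that neutrophils lack, stood at 5.48, 7.58 and 10.3 CPM, and the progenitor gene *Cd34* at 3.13, 3.41 and 5.72 CPM. In cKO, *Bcl2* stood at 2.05, 2.02 and 0.468 CPM and *Cd79a* at 1.16, 0.537 and 0.656 CPM. After thinning to 1000 UMIs, *Bcl2* was detected in 0.291% of Ctrl mNeu-like cells and *Cd79a* in 1.11%, and in imNeu-like cells of Ctrl in 0.648% and 1.08%. *Bcl2* thus lay below *Cd79a* in mNeu-like cells of both libraries and in imNeu-like cells of Ctrl, and no expression is read from these values. How many of the *Bcl2* UMIs came from other cells was not tested. The cKO library held less such RNA, as *Igkc* of mNeu-like cells was at 737 CPM in Ctrl and 103 CPM in cKO.

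**Figure D3:**
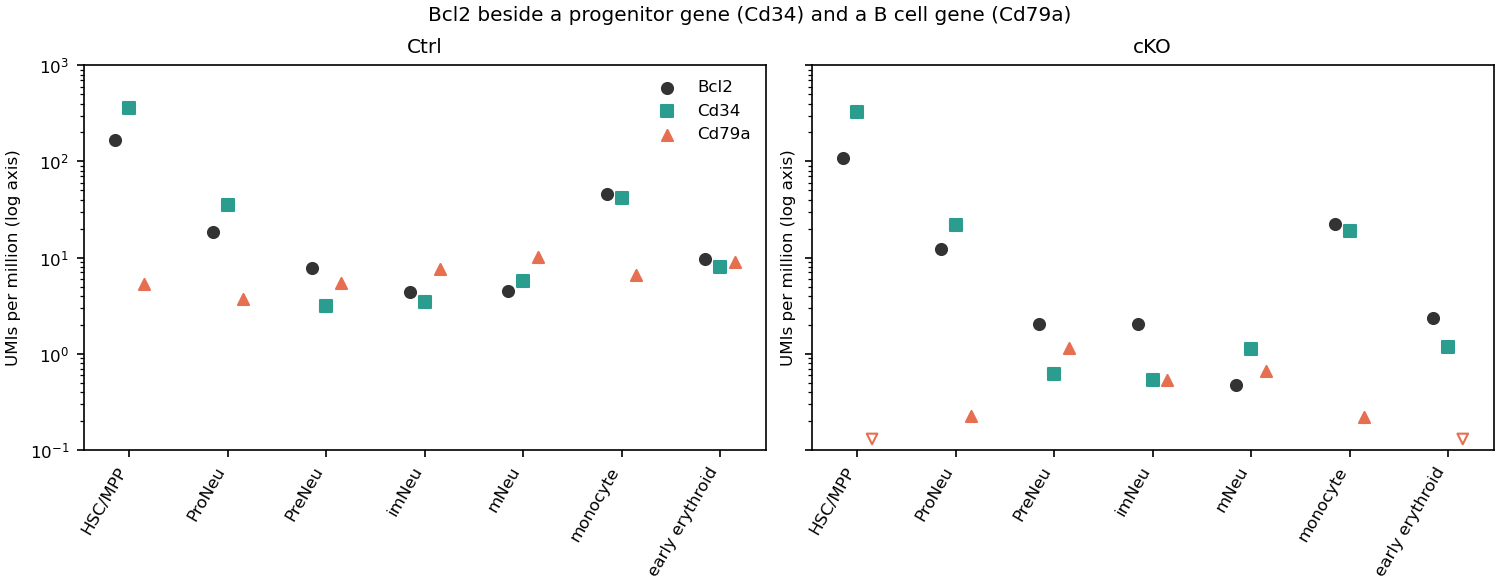
Level of *Bcl2* (black circles), the progenitor gene *Cd34* (green squares) and the B cell gene *Cd79a* (orange triangles) in 7 gates (vertical axis, CPM, log axis) for Ctrl (left) and cKO (right). Open triangles mark sums of 0. In mNeu-like cells of Ctrl, *Bcl2* at 4.54 CPM lies below *Cd79a* at 10.3 CPM.

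*Bcl2l1* (chromosome 2, 152780668 to 152831728, minus strand), which encodes BCL-XL, was low in neutrophils and high in haemoglobin-rich cells. Erythroblast-like cells held 130 CPM (102 to 164) in 158 Ctrl cells and 380 CPM (251 to 553) in 13 cKO cells, where the 27 UMIs came from 6 cells. Early erythroid-like cells, which express *Klf1* and *Gata1* ahead of haemoglobin, held 5.05 and 3.52 CPM. Among neutrophils the mNeu-like gate was highest in both libraries, at 17.7 CPM (14.3 to 21.8) in Ctrl and 15.2 CPM (12.9 to 17.7) in cKO. The ProNeu-like gate held 7.0 and 8.20 CPM. Per cell the order was the other way, with 0.119 and 0.165 *Bcl2l1* UMIs in ProNeu-like and 0.0489 and 0.106 in mNeu-like cells. ProB-like cells of Ctrl reached 32.4 CPM (22.7 to 44.8).

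The 3 *Bcl2a1* copies encode A1, a survival protein induced in activated blood cells. They lie on chromosome 9, *Bcl2a1d* at 88723285 to 88731914, *Bcl2a1a* at 88956900 to 88962419 and *Bcl2a1b* at 89199209 to 89207827. Their coding sequences in GENCODE vM21 are 516 bases each, with 97.9% to 98.8% identity between pairs and 12 positions that differ among the copies. The first 90 coding bases, where 6 of those positions lie, are shown because they let a reader see how little separates the copies. Capitals mark the positions that differ.
Bcl2a1a: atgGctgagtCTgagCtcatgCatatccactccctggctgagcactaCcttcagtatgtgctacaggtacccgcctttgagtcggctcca
Bcl2a1b: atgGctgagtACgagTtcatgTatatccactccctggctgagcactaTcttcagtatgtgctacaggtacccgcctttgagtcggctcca
Bcl2a1d: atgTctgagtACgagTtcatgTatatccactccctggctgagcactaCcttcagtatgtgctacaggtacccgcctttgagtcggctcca

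A 3′ read meets the other end of the transcript. Within the last 300 bases, the share of 90-base windows that also occur in another *Bcl2a1* transcript was 39.8% for *Bcl2a1a*, 50.2% for *Bcl2a1b* and 89.6% for *Bcl2a1d*. With 50-base windows the shares were 64.5%, 74.1% and 94.8%. Cell Ranger leaves out reads that map to several genes, and the read length is not given in the sources used here. The counts of the single copies are therefore uncertain and their sum may be too low.

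With that limit, *Bcl2a1* UMIs were few in marrow. The kept cells held 57 UMIs of *Bcl2a1a*, 149 of *Bcl2a1b* and 68 of *Bcl2a1d* in Ctrl, and 58, 113 and 72 in cKO. Summed over copies, mNeu-like cells stood at 3.75 CPM (2.26 to 5.85) in Ctrl and 2.15 CPM (1.37 to 3.23) in cKO. ProNeu-like cells held 3.35 and 3.46 CPM. Monocyte-like cells held 6.38 (4.64 to 8.57) and 5.93 CPM (3.91 to 8.63), apart from the mNeu-like interval in cKO and overlapping it in Ctrl. In mNeu-like, ProNeu-like and monocyte-like cells of Ctrl, *Cd79a* stood above these sums, at 10.3, 3.73 and 6.53 CPM. In cKO it stood below them, at 0.656, 0.226 and 0.22 CPM. The part of other-cell RNA in the *Bcl2a1* sums was not tested. In HSC/MPP-like and early erythroid-like cells the sums were 5 and 0 UMIs in Ctrl and 0 and 1 in cKO. The highest sums were in small gates. The 50 UMIs of the 15 B-like cKO cells all came from 1 cell, whereas in Ctrl 13 of 293 B-like cells held 18 UMIs.

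Together these levels set the make-up of survival gene UMIs. In mNeu-like cells *Mcl1* supplied 95.8% of them in Ctrl and 96.5% in cKO, and the *Bcl2a1* copies 0.61% (0.367% to 0.95%) and 0.421% (0.267% to 0.631%). These intervals do not cover reads left out because they map to several copies. The *Bcl2a1* shares may therefore be too low and the other shares too high. In ProNeu-like cells *Mcl1* supplied 72.2% and 68.7%, and *Bcl2* 17.9% and 16.0%. *Bcl2* accounted for 53.9% and 49.0% in HSC/MPP-like cells and for 67.2% (59.8% to 74.1%) and 70.4% (56.4% to 82.0%) in T-like cells. *Bcl2l1* accounted for 60.2% (50.7% to 69.1%) in erythroblast-like cells of Ctrl and 96.4% (81.7% to 99.9%) in the 13 of cKO. Looser gates gave 48.4% for Ctrl and 77.8% for cKO, and gates from other genes of the class 38.7% and 69.2%. Taken over all 10 members, survival genes made up 33.7% and 26.9% of UMIs in ProNeu-like cells and 80.6% and 80.8% in mNeu-like cells.

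**Figure D4:**
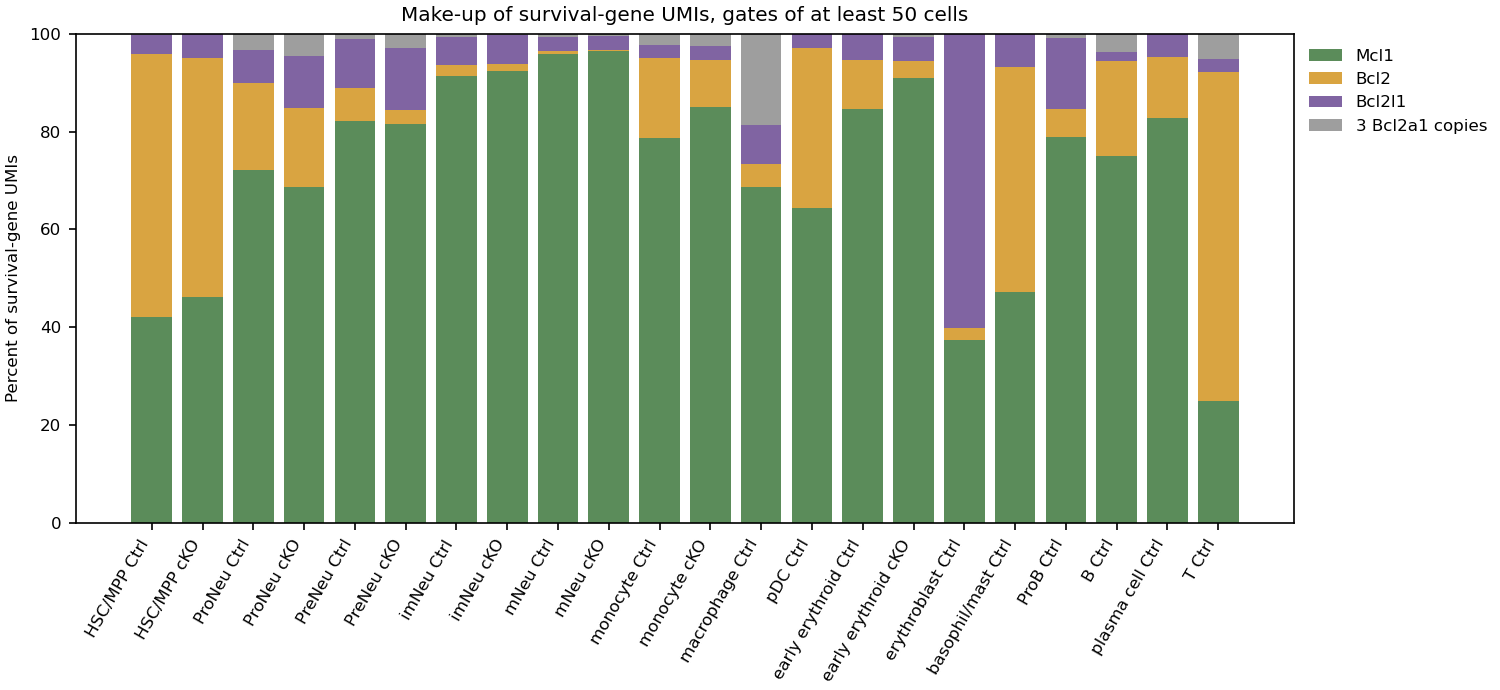
Percent of survival-gene UMIs (vertical axis, 0 to 100) from *Mcl1* (green), *Bcl2* (yellow), *Bcl2l1* (purple) and the 3 *Bcl2a1* copies (grey) in each gate and library with at least 50 cells. *Mcl1* fills 95.8% and 96.5% of the mNeu-like bars, *Bcl2* 67.2% of the T-like bar and *Bcl2l1* 60.2% of the erythroblast-like bar. The *Bcl2a1* parts may be too low, as reads that map to several genes are left out.

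The 2 pore-forming genes differed from each other along the neutrophil path. *Bax* (chromosome 7, 45461697 to 45466898, minus strand) stood in Ctrl at 74.9, 27.6, 23.3 and 19.3 CPM from ProNeu-like to mNeu-like cells. For cKO the values were 89.5, 24.6, 18.9 and 12.8 CPM. *Bax* of ProNeu-like cells was 2.71 times that of PreNeu-like cells in Ctrl and 3.63 times in cKO, with intervals far apart, whereas PreNeu-like and imNeu-like intervals overlapped in both libraries. The highest *Bax* levels were in early erythroid-like cells of Ctrl, at 108 CPM (100 to 117), and in monocyte-like cells of cKO, at 147 CPM (136 to 159).

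*Bak1* (chromosome 17, 27019810 to 27029009, minus strand) varied least among the members with over 1000 UMIs. Across the 7 gates it ran from 43.0 to 80.8 CPM in Ctrl and from 35.8 to 90.5 CPM in cKO, with mNeu-like cells lowest and monocyte-like cells highest in both. Its mNeu-like level was lower than its ProNeu-like level by a factor of 1.64 in Ctrl and 1.93 in cKO, where the factors for *Bax* were 3.88 and 6.98.

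Of the BH3-only genes, *Bid* (chromosome 6, 120891930 to 120916853, minus strand) encodes a protein that is cut by caspase-8 and carries the death receptor signal to mitochondria. In CPM it was lowest in the middle stages and highest in mature cells. Ctrl levels from ProNeu-like to mNeu-like cells were 51.7, 25.8, 23.3 and 74.7 CPM. The cKO levels were 42.7, 17.2, 18.3 and 61.3 CPM in that order. The mNeu-like gate had the highest CPM of the 7 for *Bid* in both libraries, and its interval overlapped that of monocyte-like cells (69.1 and 54.3 CPM) in both. Per cell, *Bid* UMIs were highest in ProNeu-like cells among the neutrophil gates. From ProNeu-like to mNeu-like cells they were 0.88, 0.281, 0.13 and 0.206 in Ctrl, and 0.859, 0.324, 0.218 and 0.428 in cKO. *Bcl2l11* (chromosome 2, 128126038 to 128162547), which encodes BIM, stayed between 4.84 and 11.8 CPM in the neutrophil gates. It stood at 32.6 and 29.9 CPM in monocyte-like, 37.9 and 24.7 CPM in early erythroid-like and 74.6 CPM (44.2 to 118) in T-like cells of Ctrl.

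From ProNeu-like to mNeu-like cells 5 of the 10 members were higher and 5 lower in both libraries, where 31.7% of all genes were higher in Ctrl and 30.3% in cKO. The count includes the 3 *Bcl2a1* copies singly, which rest on few UMIs. Summed, the copies went from 3.35 to 3.75 CPM in Ctrl and from 3.46 to 2.15 CPM in cKO, so their direction was not the same in both libraries. In this paragraph the shares of all genes are those of each library alone, and the share that passed in both libraries was not computed. The log2 ratio was at least 1 in both libraries for *Mcl1* alone, beside 17.9% of all genes with at least 10 UMIs in Ctrl and 17.8% in cKO. It was at or below -1 in both for *Bcl2* and *Bax*, beside 49.4% and 54.3% of all genes. The median gene was lower in mNeu-like cells by 1.03 on the log2 scale in Ctrl and 1.27 in cKO, and *Bak1*, at -0.71 and -0.95, lay above it in both. From imNeu-like to mNeu-like cells the ratio was at least 1 in both for *Mcl1*, *Bid* and *Bcl2a1a*, beside 15% and 14.7% of all genes, and at or below -1 in both for none, beside 10.2% and 17.5%. For *Bcl2a1a* the imNeu-like gate held 2 UMIs in Ctrl and 0 in cKO, and the mNeu-like gate 9 and 10. Its Ctrl interval ran from -0.05 to 5.48, and its cKO call set the sum of 0 to 3 UMIs. From HSC/MPP-like to ProNeu-like cells the log2 ratio was at or below -1 in both for *Bcl2* and *Bcl2l11*, beside 22.8% and 29.1% of all genes, and at least 1 in both for none with 10 UMIs, beside 5.89% and 5.64%.

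The comparison of cKO with Ctrl asks whether these genes differ in cells of *Map4k4*-cKO mice. In all 7 gates the median gene was lower in cKO, by 0.09 in HSC/MPP-like cells up to 0.53 in mNeu-like cells on the log2 scale, and it is given beside the members. The share of all genes above 0 ran from 42.5% in HSC/MPP-like to 15.1% in mNeu-like cells. In mNeu-like cells 8 of the 9 members with a ratio were below 0, with a median of -0.29 beside -0.53 for 10509 genes. A ratio at or below -1 was found for 1 of the 9, *Bcl2*, beside 24.9% of all genes, and none was at or above 1, beside 1.64%. In ProNeu-like cells the median of 10 members was -0.11 beside -0.29, with 1 member at or above 1 (1.20% of all genes) and none at or below -1 (6.0%). In PreNeu-like cells it was -0.23 beside -0.36, with 1 of 9 at or above 1 (1.12%) and 1 at or below -1 (9.85%). In imNeu-like cells it was -0.43 beside -0.41, with 1 of 7 at or below -1 (16.2%) and none at or above 1 (1.14%). In HSC/MPP-like cells the median of 7 members was -0.27 beside -0.09, and none was beyond 1 either way (2.77% of all genes higher and 4.73% lower). In monocyte-like cells it was -0.14 beside -0.22 and in early erythroid-like cells -0.35 beside -0.18, with *Bcl2* at or below -1 in each (8.33% and 9.51%) and none at or above 1 (1.67% and 1.72%). Members with under 10 UMIs in a gate have no ratio. All these ratios are of CPM. The mean UMIs per cell of cKO over Ctrl ran from 1.15 in HSC/MPP-like to 2.53 in mNeu-like cells.

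**Figure D5:**
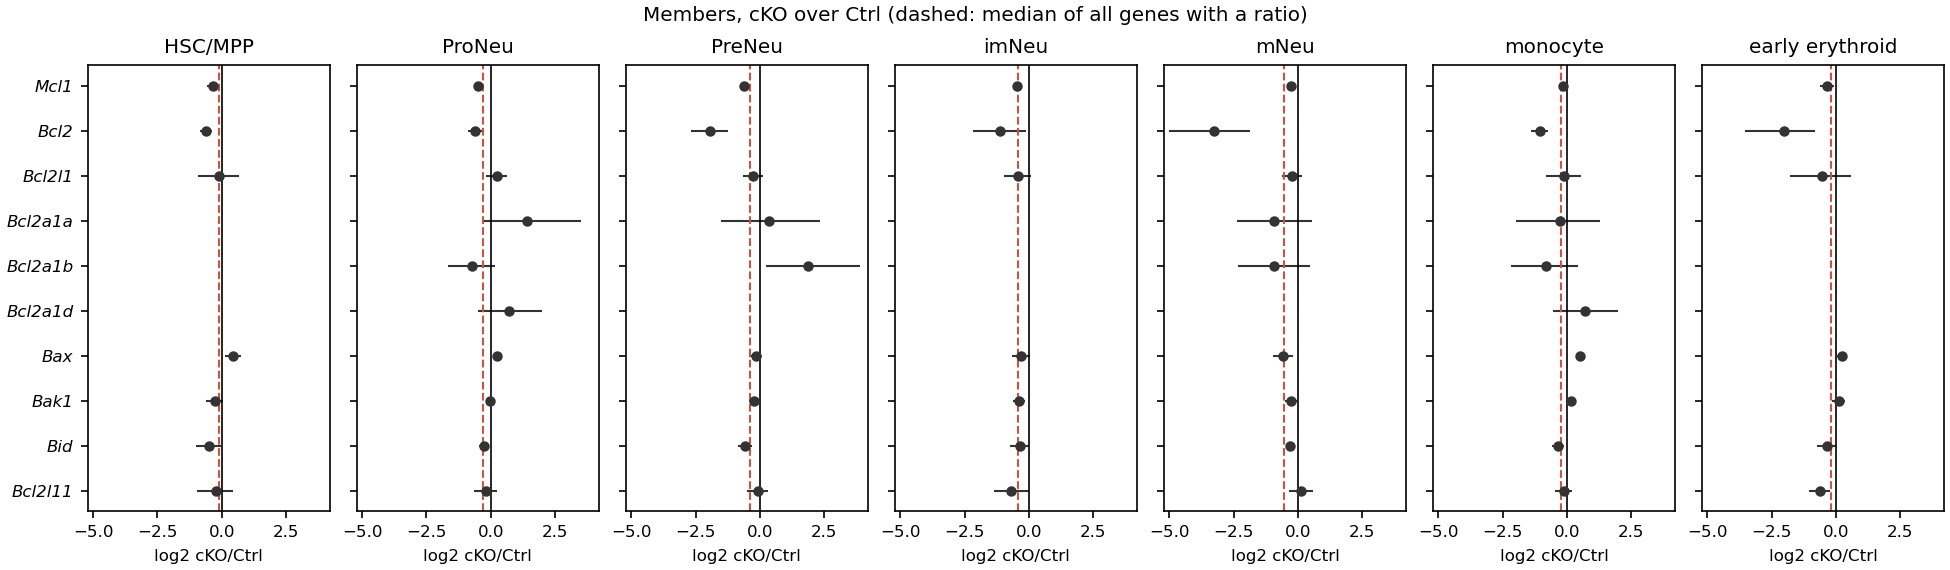
Log2 ratio of cKO over Ctrl for each member (horizontal axis) in 7 gates, with exact 95% counting intervals. The solid line marks 0 and the dashed line the median of all genes with a ratio, from -0.09 in HSC/MPP-like to -0.53 in mNeu-like cells. *Bcl2* lies left of the dashed line in every panel.

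*Bcl2* was lower in cKO in 7 of 7 gates and below the median gene in each. Where its level stood well above other-cell RNA, in HSC/MPP-like cells, the log2 ratio was -0.60 (-0.84 to -0.37) beside -0.09 for the median gene. Over 12 alternative settings it stayed between -0.82 and -0.23. In ProNeu-like cells it was -0.59 (-0.89 to -0.30), between -2.15 with cells thinned to 1000 UMIs and -0.30 under median-of-ratios scaling. In monocyte-like cells it was -1.05 (-1.38 to -0.72) and ran from -1.13 to -0.43 over the alternatives, so that it did not stay at or below -1 under all of them. *Cd34* in the same 3 gates went from 361 to 326 CPM, from 35.2 to 22 CPM and from 42.1 to 18.7 CPM. Its part in the *Bcl2* values was not tested. The ratios of -1.92, -1.11 and -3.28 in the 3 later neutrophil gates and of -2.03 in early erythroid-like cells go with levels of 9.61 CPM or less, at which the other-cell RNA described above also differed between the libraries.

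In CPM, *Mcl1* was also lower in cKO in 7 of 7 gates, but close to the median gene. The log2 ratios ran from -0.63 (-0.77 to -0.49) in PreNeu-like to -0.16 (-0.28 to -0.04) in monocyte-like cells. Relative to the median gene they lay between -0.27 and 0.27, below it in 5 gates and above it in 2. In mNeu-like cells the value of -0.25 (-0.32 to -0.19) was 0.27 above the median gene, and median-of-ratios scaling turned it to 0.27 and the monocyte-like value to 0.06. Thinning to 1000 UMIs turned the HSC/MPP-like value to 0.05. Per cell, *Mcl1* UMIs of cKO over Ctrl were 0.914 in HSC/MPP-like and 0.831 in ProNeu-like cells. In the other gates they ran from 1.12 (PreNeu-like) to 2.12 (mNeu-like), so the counts per cell were higher in cKO there. *Bid* was below 0 in 7 of 7 gates, from -0.59 to -0.28, and on either side of the median gene, below it in 4 gates. Its sign turned under median-of-ratios scaling in ProNeu-like (0.02), imNeu-like (0.05) and mNeu-like cells (0.24), and under thinning in monocyte-like cells (0.08). *Bid* UMIs per cell of cKO over Ctrl were 0.805 in HSC/MPP-like and 0.977 in ProNeu-like cells. In the other gates they ran from 1.13 (monocyte-like) to 2.08 (mNeu-like).

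*Bax* was above the median gene in 6 of 7 gates. The largest log2 ratio was 0.51 (0.36 to 0.67), in monocyte-like cells. HSC/MPP-like cells followed with 0.42 (0.11 to 0.73), then ProNeu-like cells with 0.26 (0.13 to 0.38) and early erythroid-like cells with 0.23 (0.03 to 0.42). Across the alternatives it stayed above 0 in the HSC/MPP-like, monocyte-like and early erythroid-like gates. In ProNeu-like cells the mean of per-cell proportions gave -0.08 and thinning to 1000 UMIs -0.01. In the 3 later neutrophil gates *Bax* was at -0.16, -0.30 and -0.59. Per cell, *Bax* UMIs were higher in cKO in every gate, from 1.41 times in ProNeu-like to 2.04 times in monocyte-like cells. *Bak1* lay within -0.37 and 0.16 and above the median gene in 6 of 7 gates, with a sign that turned under at least 1 alternative in all but HSC/MPP-like cells. *Bcl2l1* ranged from -0.52 to 0.23 and *Bcl2l11* from -0.68 to 0.12, and intervals of *Bcl2l1* included 0 in all 7 gates. *Bcl2l11* was at -0.68 (-1.37 to -0.003) in imNeu-like and -0.62 (-1.05 to -0.21) in early erythroid-like cells. The median gene stood at -0.41 and -0.18 there. In the other gates the *Bcl2l11* interval included 0.

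The single *Bcl2a1* copies gave the only ratios at or above 1, *Bcl2a1a* at 1.41 (-0.34 to 3.52) in ProNeu-like cells from 4 and 11 UMIs, and *Bcl2a1b* at 1.86 (0.23 to 3.9) in PreNeu-like cells from 4 and 16 UMIs. The 3 copies summed gave 0.05 (-0.58 to 0.68) and 0.81 (-0.22 to 1.90) in these gates.

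A further 32 genes of the pathway were counted in 6 lists. MCL1 protein is marked for destruction by the ubiquitin ligases HUWE1 and MARCH5 and by FBXW7, and is spared by the enzyme USP9X. All 4 genes were below 0 in each of the 7 gates, where most of all genes were below 0 too. The list medians ran from -0.76 to -0.27, each below the median gene. In mNeu-like cells *Huwe1* stood at 23.1 CPM in Ctrl and 11.8 CPM in cKO, a log2 ratio of -0.97 (-1.34 to -0.59), and in imNeu-like cells *Fbxw7* at 13.6 and 6.31 CPM, a log2 ratio of -1.11 (-1.67 to -0.56). *Fbxw7* was the only 1 of the 4 beyond 1 in imNeu-like cells, beside 16.2% of all genes at or below -1. *Cd79a* stood at 10.3 CPM in Ctrl and 0.656 CPM in cKO in mNeu-like cells, and at 7.58 and 0.537 CPM in imNeu-like cells. The part of other-cell RNA in the *Huwe1* and *Fbxw7* values was not tested. *Usp9x* was at -0.71 (-0.84 to -0.57) in ProNeu-like cells. *Huwe1* was the most abundant of the list, at 206 CPM in HSC/MPP-like cells of Ctrl.

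Of the 6 other BH3-only genes, *Hrk* had no UMI in the 7 gates and *Bad* was the most abundant, at 25.0 to 37.8 CPM in the neutrophil gates of Ctrl and 31.0 to 47.0 CPM in those of cKO. *Bad*, whose protein binds BCL2 and BCL-XL, was above 0 in all 7 gates, from 0.26 (0.04 to 0.49) in PreNeu-like to 0.85 (0.41 to 1.29) in HSC/MPP-like cells, and at 0.38 (0.09 to 0.69) in mNeu-like cells. Its interval included 0 in imNeu-like (-0.004 to 0.63) and early erythroid-like cells (-0.08 to 0.72). *Pmaip1*, which encodes the MCL1 partner NOXA, stood at 8.68 CPM in Ctrl and 1.87 CPM in cKO in mNeu-like cells, a log2 ratio of -2.21 (-3.05 to -1.42) from 44 and 20 UMIs. It was the only 1 of 4 listed genes with a ratio there that was beyond 1, beside 24.9% of all genes at or below -1. The B cell gene *Cd79a* stood at 10.3 CPM in Ctrl and 0.656 CPM in cKO in the same mNeu-like cells. The part of other-cell RNA in the *Pmaip1* values was not tested. In ProNeu-like cells the *Pmaip1* ratio was 0.65 (-0.01 to 1.34). *Bbc3*, which encodes PUMA, was at 4.34 and 5.24 CPM in mNeu-like cells.

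Genes acting after pore opening had list medians between -0.39 and 0.01 over the 7 gates, each above the median gene. *Cycs*, which encodes cytochrome c, was the most abundant, at 618 CPM in early erythroid-like cells of cKO, and went from 402 CPM in ProNeu-like to 33.9 CPM in mNeu-like cells of Ctrl. *Xiap*, a caspase inhibitor gene, was at -0.79 (-0.98 to -0.61) in ProNeu-like cells and *Htra2*, a protease gene, at -1.11 (-1.49 to -0.73) in mNeu-like cells. *Htra2* was the only 1 of the 8 listed genes beyond 1 there, beside 24.9% of all genes at or below -1. Its mNeu-like levels were 23.3 CPM in Ctrl and 10.8 CPM in cKO, beside *Cd79a* at 10.3 and 0.656 CPM. The part of other-cell RNA in them was not tested. *Casp9*, which encodes the caspase that cytochrome c sets off, was at 0.06 (-0.41 to 0.53) in imNeu-like cells. Among BCL2-like genes, the mitophagy gene *Bnip3l* was most abundant, at 239 CPM in imNeu-like cells of Ctrl and 222 CPM in cKO. *Bnip3* was at 0.34 (0.04 to 0.65) in mNeu-like cells. The members of that list beyond 1 were *Bcl2l15* at -1.17 (-2.06 to -0.32) in imNeu-like, *Bcl2l12* at -1.75 (-2.79 to -0.76) in mNeu-like and *Bcl2l14* at -1.05 (-2.60 to 0.36) in ProNeu-like cells. In that order they were 1 of 5, 1 of 4 and 1 of 6 listed genes with a ratio. The shares of all genes at or below -1 there were 16.2%, 24.9% and 6.0%. *Bcl2l15* stood in imNeu-like cells at 6.07 CPM in Ctrl and 2.69 CPM in cKO, beside *Cd79a* at 7.58 and 0.537 CPM. *Bcl2l12* stood at 4.73 CPM (24 UMIs) and 1.40 CPM (15 UMIs), beside *Cd79a* at 10.3 and 0.656 CPM. Other-cell RNA thus also differed between the libraries at such levels, and its part was not tested.

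The survival gene *Bcl2l2*, which encodes BCL-W, stood at no more than 13.4 CPM in any of the 7 gates and at -0.86 (-1.49 to -0.25) in PreNeu-like cells, while *Bcl2l10* and *Bcl2a1c* were at or near 0. The PreNeu-like levels of *Bcl2l2* were 5.97 CPM in Ctrl and 3.29 CPM in cKO, beside *Cd79a* at 5.48 and 1.16 CPM. The part of other-cell RNA in them was not tested. Of the mitochondrial channel genes, *Vdac2*, whose protein holds BAK, was highest at 329 CPM in early erythroid-like cells of cKO, and *Mtch2*, which encodes a BID receptor, was at 0.22 (0.05 to 0.40) in PreNeu-like cells.

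Genes with the most similar levels were sought for the 7 members with at least 1000 UMIs, over the 22 gate and library pairs with at least 50 cells. Pearson's r of log2(CPM + 10) was computed against 3832 genes. *Bax* was most like *Dmac1* (r = 0.969), *Bak1* most like *C1d* (0.916) and *Mcl1* most like *Samhd1* (0.898). For *Bcl2* the nearest was *Macf1* (0.885), for *Bcl2l11* *Mier1* (0.838), for *Bcl2l1* *Rsad2* (0.832) and for *Bid* *Eloa* (0.813). *Bcl2l1* (130 CPM) and *Rsad2* (659 CPM) were both highest in erythroblast-like cells of Ctrl. The next highest *Bcl2l1* level was 32.4 CPM, in ProB-like cells of Ctrl. How far that r rests on 1 point was not tested. The points share 2 libraries, so r is a description only.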

How the data were processed

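Bone marrow of 1 Ctrl and 1 cKO library was profiled by DG1000 3′ scRNA-seq. Per the labels and methods, the authors made the deposited counts (raw UMIs per gene and barcode, not normalized) with Cell Ranger 5.0.0 on mm10 (GRCm38). The filters kept cells in which 200 to 9000 genes were detected and mitochondrial UMIs made up 30% or less.

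The rule that scores markers was set after marker values, but no member values, had been seen. A gate needed 3 markers at 4 times their mean share and 2 more than any other class. ProNeu-like cells needed primary granule markers at 2 times their mean share, PreNeu-like and imNeu-like cells secondary markers at 1.41 times, with cell cycle genes at or above 1 time or under 0.5 times, and mNeu-like cells late markers at 2.83 times. Of 7895 neutrophil cells, 1326 lay within 0.5 (log2) above a cut, and 5587 cells stayed ungated, of which 2108 lay within 0.5 of one. Doublets were not called. Cells that met 2 classes without the margin stayed ungated, but gated cells could carry some markers of another class (a median of 3 in megakaryocyte-like and 2 in pDC-like cells of Ctrl), and 1 alternative left out the 5% of cells with most UMIs.

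UMIs were summed per gate and library. Levels carry exact Poisson, shares Clopper-Pearson and log2 ratios exact binomial 95% intervals. Ratios needed 10 UMIs over both sums. A sum of 0 was set to 3 UMIs before a ratio was counted as beyond 1. The calculation was tested on simulated data. Cells were not treated as replicates. The members and lists were chosen with earlier results of these data known. Named genes are the members, the 3 highest and 3 lowest pathway ratios per neutrophil gate with at least 50 UMIs, the most abundant gene of each list and the gene most like each member. A gene that this rule also names is not reported here. *Hrk*, *Bcl2l10*, *Bcl2a1c*, *Bcl2l12*, *Bcl2l14* and the genes of other cells were named after their values were seen. GENCODE vM21 on GRCm38 holds 32158 of the 32285 identifiers and gave positions and transcripts. Python 3.11.15, numpy 2.4.6, scipy 1.17.1, pandas 2.3.3 and matplotlib 3.10.9 were used.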

Additional observations from a re-analysis of the deposited data

Results flagged for a closer look

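In CPM, *Bax* differed in direction between gates. Its log2 ratio of cKO over Ctrl was 0.51 in monocyte-like and -0.59 in mNeu-like cells, a gap of 1.10, with the whole counting interval above 0 in 4 gates and below 0 in 1. The gap itself was not tested. The median gene stood at -0.22 and -0.53 in these gates, so that *Bax* lay 0.73 above it in monocyte-like cells and 0.07 below it in mNeu-like cells. Per cell, *Bax* UMIs were higher in cKO in both gates, by 2.04 and 1.68 times. All UMIs per cell were higher by 1.43 and 2.53 times. In mNeu-like cells *Bax* stood at 19.3 CPM in Ctrl and 12.8 CPM in cKO, beside *Cd79a* at 10.3 and 0.656 CPM. The part of other-cell RNA was not tested.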

How the results depend on the processing

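No paired analysis was possible because each group holds 1 library, and no library could be left out. The number of members with the same highest gate, and the number higher in mNeu-like than in ProNeu-like cells, stayed within 1.5 times under every alternative run. Under median-of-ratios scaling the member median was 0.13 in PreNeu-like and 0.24 in mNeu-like cells. Thinning to 1000 UMIs gave -0.58 for ProNeu-like cells, a *Bcl2a1* share of 0.233% in cKO mNeu-like cells, a *Bcl2* share of 50% in T-like cells of both libraries and a *Bcl2l1* share of 100% in cKO erythroblast-like cells. Leaving out barcode names found in both libraries, chosen after seeing the data, gave a *Bcl2a1* share of 0.652%. The *Bcl2l1* share in erythroblast-like cells was 73.3%, 48.4% and 38.7% in Ctrl and 100%, 77.8% and 69.2% in cKO with stricter gates, looser gates and gates from the check genes. In cKO it was also 100% with at least 1000 or 2000 UMIs or at most 10% mitochondrial UMIs, and 76.5% by per-cell proportions. The *Bcl2* share in T-like cells was 59.3% in Ctrl with stricter gates, and 77.0% in Ctrl and 41.2% in cKO with gates from the check genes. These causes were not tested. Of 59 ratios of a member in a gate, 38 stayed inside their main interval and 41 kept their sign under median-of-ratios scaling. With every cell thinned to 1000 UMIs, 18 of 42 stayed inside, 34 kept their sign and 9 were newly beyond 1. With gates from the check genes, 44 of 56 stayed inside and 46 kept their sign. Without barcode names found in both libraries, 45 of 54 stayed inside, 49 kept their sign and 3 were newly beyond 1. Of the 7 ratios beyond 1, 3 were no longer beyond 1 with stricter gates and with gates from the check genes, 2 with looser gates and under median-of-ratios scaling, and 1 with thinning and without the 5% of cells with most UMIs. *Bcl2* in monocyte-like and imNeu-like cells was lost most often. None of the 7 changed sign.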
